A study of Mus musculus with 6 samples.

Results

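The genes described here had no RNA counted in wild-type 4T1 spheroids and at least 1 CPM (the gene's share of the library's total, scaled to 1e6) in each spheroid library labelled as LATS1/2 double knock-out. 4T1 is a mouse line of triple-negative breast cancer, and a spheroid is a ball of cells grown in 3 dimensions; both groups were cultured as spheroids in RPMI medium with fetal bovine serum. The groups were 3 wild-type libraries (WT 1 to 3) and 3 libraries labelled LATS1/2 double knock-out (dKO 1 to 3), sequenced from total RNA. The labels call the libraries of a group biological replicates without stating separate cultures, and do not say whether the dKO line is 1 clone, so p-values measure only the spread between these libraries. Of 48820 genes in the table, 26385 had 0 counts in every WT library and 23336 of these had 0 counts in all 6 libraries. Of the remaining 3049 genes, 514 were above 0 in all 3 dKO libraries and 75 reached 1 CPM in each. Fras1, Serpinb9b and the collagen gene Col5a2 were set aside by name, as were any Hox, Wnt, Fzd, Arhgef or Arhgap genes, which left 72 members. The members were selected on the dKO against WT contrast, so their difference between the groups is a description with no test. The mirrored choice (0 counts in every dKO library and at least 1 CPM in every WT library, with no gene set aside by name) gave 69 genes.

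LATS1 and LATS2 are the kinases at the end of the Hippo cascade: they phosphorylate the co-activators YAP and TAZ and keep them out of the nucleus, where these bind TEAD transcription factors on DNA. A gene with no RNA in a cell line is often held silent by CpG methylation of its promoter, by Polycomb or heterochromatin marks, or by the lack of the tissue-specific factors it needs. Many genes of this kind belong to families expressed in few tissues, such as mast cell receptors, liver secretory proteins or skin serpins.

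Library totals lay between 38194478 and 49630116 counts. WT 2 and dKO 3 lay farther from the other libraries of their groups than those did from each other. Over 9678 genes at 5 CPM or more everywhere, the median absolute log2 ratio was 0.15 and 0.17 for WT 2, against 0.078 between WT 1 and WT 3; for dKO 3 it was 0.15 and 0.16, against 0.080 between dKO 1 and dKO 2. Lats1 RNA was lower in the dKO libraries (mean 51.1 against 152 CPM), with a fitted log2 fold change of -1.59 (edgeR adjusted p = 4.66e-07), whereas Lats2 RNA was higher (78.1 against 27.0 CPM, log2 fold change 1.52, adjusted p = 3.46e-05). The edited stretch of neither gene is given in the sources used here, so these gene-level values do not check the knock-out. In the edgeR fit over all genes, 15807 were tested, 28.6% were called higher and 28.7% lower in dKO at an adjusted p under 0.05. All 72 members were tested and all were called higher, which the selection built in and from which nothing is read.

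The promoter windows of a few members are printed first, since the results on CpG content and motifs below rest on them. RefSeq (GRCm38.p6) held a window from 250 bases before to 50 after the start for 51 of the 72. The first pair is shown for its CpG dinucleotides, in capitals. The windows are those of Palm3, a membrane-anchored paralemmin and the member with the highest CPM, at chr8:84021224-84021523 (plus strand), and of Bmper, a secreted BMP-binding protein, at chr9:23222826-23223125 (plus strand).
Palm3: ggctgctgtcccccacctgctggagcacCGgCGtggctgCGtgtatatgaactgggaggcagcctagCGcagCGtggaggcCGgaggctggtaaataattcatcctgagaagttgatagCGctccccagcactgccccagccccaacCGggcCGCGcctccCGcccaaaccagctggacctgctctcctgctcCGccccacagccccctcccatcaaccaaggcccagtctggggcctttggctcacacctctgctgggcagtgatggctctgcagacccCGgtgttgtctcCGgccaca
Bmper: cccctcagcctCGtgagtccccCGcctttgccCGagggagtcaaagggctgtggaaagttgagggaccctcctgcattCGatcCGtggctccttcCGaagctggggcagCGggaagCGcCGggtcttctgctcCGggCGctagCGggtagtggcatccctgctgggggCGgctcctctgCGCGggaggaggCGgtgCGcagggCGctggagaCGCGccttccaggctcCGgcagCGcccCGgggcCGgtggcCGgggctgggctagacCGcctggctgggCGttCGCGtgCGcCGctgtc
The Palm3 window held 14 CpG dinucleotides, an observed-to-expected ratio of 0.442. Bmper had 31 and a ratio of 0.789, whereas the windows of Gc and Mrgprb2 held 0. Bmper was in the minority: 6 of the 51 members (11.8%) reached a ratio of 0.6, the others being Fstl1, Cmtm8, Rasgrp1, Eya4 and the non-coding 5430403N17Rik (the last 4 were named after their values were seen). The median ratio was 0.233 over the members, against 0.789 over 8888 other genes at 1 CPM or more in every dKO library, of which 76.7% reached 0.6. Member promoters lay close to those of 4217 protein-coding genes with 0 counts in all 6 libraries, whose median was 0.202 and of which 14.1% reached 0.6. The 43 windows of the mirrored set lay between, with a median of 0.432 and 44.2% at 0.6 or more. Over all 27025 windows the median was 0.388. These shares were not tested.

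**Figure D1:**
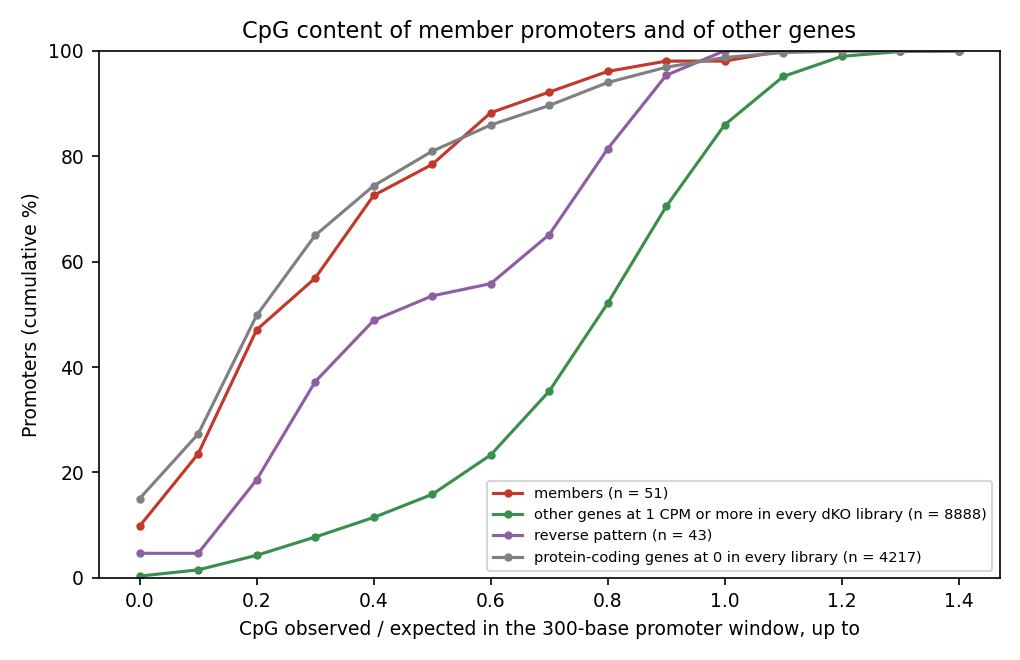
Cumulative share of promoters (%, y axis) up to each observed-to-expected CpG ratio (x axis) in the 300-base window, for the 51 members with a window and 3 comparison sets. The member curve runs beside that of protein-coding genes at 0 in every library and far to the left of other genes in the dKO libraries, of which 76.7% lie at 0.6 or above.

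A second set of windows is shown for short motifs searched on both strands, in capitals: GGAATG, the core bound by TEAD factors, TGANTCA, the AP-1 element, and TATAAA, the TATA box. They belong to Mrgprb2, a mast cell receptor, at chr7:48558037-48558336 (minus strand), Tnfsf18, a TNF-family ligand, at chr1:161494407-161494706 (plus strand), and Vgll1, a co-factor that binds TEAD, at chrX:57087856-57088155 (plus strand). Tnfsf18 and Vgll1 were chosen after their values were seen.
Mrgprb2: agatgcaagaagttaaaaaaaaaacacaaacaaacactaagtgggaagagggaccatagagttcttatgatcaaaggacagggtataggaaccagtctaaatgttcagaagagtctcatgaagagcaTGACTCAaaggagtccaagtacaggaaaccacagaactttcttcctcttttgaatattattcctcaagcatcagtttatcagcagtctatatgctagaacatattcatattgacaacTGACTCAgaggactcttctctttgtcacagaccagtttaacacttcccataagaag
Tnfsf18: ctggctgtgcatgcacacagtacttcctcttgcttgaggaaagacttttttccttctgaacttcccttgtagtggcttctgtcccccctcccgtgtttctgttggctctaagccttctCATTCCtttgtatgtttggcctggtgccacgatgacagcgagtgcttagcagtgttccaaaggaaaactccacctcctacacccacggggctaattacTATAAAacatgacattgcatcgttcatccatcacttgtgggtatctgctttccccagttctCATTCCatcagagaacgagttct
Vgll1: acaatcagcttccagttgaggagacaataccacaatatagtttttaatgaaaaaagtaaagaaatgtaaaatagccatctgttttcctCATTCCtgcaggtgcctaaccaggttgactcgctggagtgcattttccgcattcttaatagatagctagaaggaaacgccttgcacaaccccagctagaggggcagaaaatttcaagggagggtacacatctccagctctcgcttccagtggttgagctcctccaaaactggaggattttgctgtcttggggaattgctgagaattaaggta
The Mrgprb2 window held 2 AP-1 elements, at -123 and -6 from the start, and no TEAD core. In Tnfsf18, TEAD cores stood at -132 and 27 and a TATA box at -34, and in Vgll1 a TEAD core stood at -162; on the printed strand these cores read as the reverse complement. A TEAD core was in 11 member windows (21.6%), against 14.6% of all windows and 20.9% of the mirrored set. An AP-1 element was in 7 (13.7%), against 7.89% of all windows and 11.6% of the mirrored set, and a TATA box in 6 (11.8%), against 14.2% of all. For TEAD, AP-1 and TATA in that order, protein-coding genes with 0 counts in every library had 14.7%, 10.6% and 25.7%. Other genes at 1 CPM or more in every dKO library had 11.7%, 4.62% and 6.22%. A match is a string of letters and was not tied to binding in these data. The Palm3, Gc, Siglecg and Igf2 windows held none of the 3 motifs.

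The members as a whole were low. Their mean dKO level had a median of 3.37 CPM and ran from 1.27 to 91.8 CPM: 9 members reached 10 CPM, 11 lay from 5 to under 10, 38 from 2 to under 5 and 14 under 2. Their summed level was 465, 473 and 485 CPM in dKO 1, 2 and 3, of which Palm3 held 19.4% and the 10 highest members 55.9%. Per kilobase of exon (RPKM) the median member stood at 1.18, against 4.27 over 16771 genes above 0 in all dKO libraries, and 14 members lay above that median. Because WT was at 0, fold changes are lower bounds against 12 counts in each WT library, a mean of 0.265 CPM. That floor stands for 3 read pairs of up to 4 counts each, covers counting error only, and was set after values were seen. On it the members were at least 4.78-fold to at least 346-fold higher in dKO, with a median bound of 12.7. In bulk RNA, expression in few cells and low expression in all cells cannot be told apart.

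**Figure D2:**
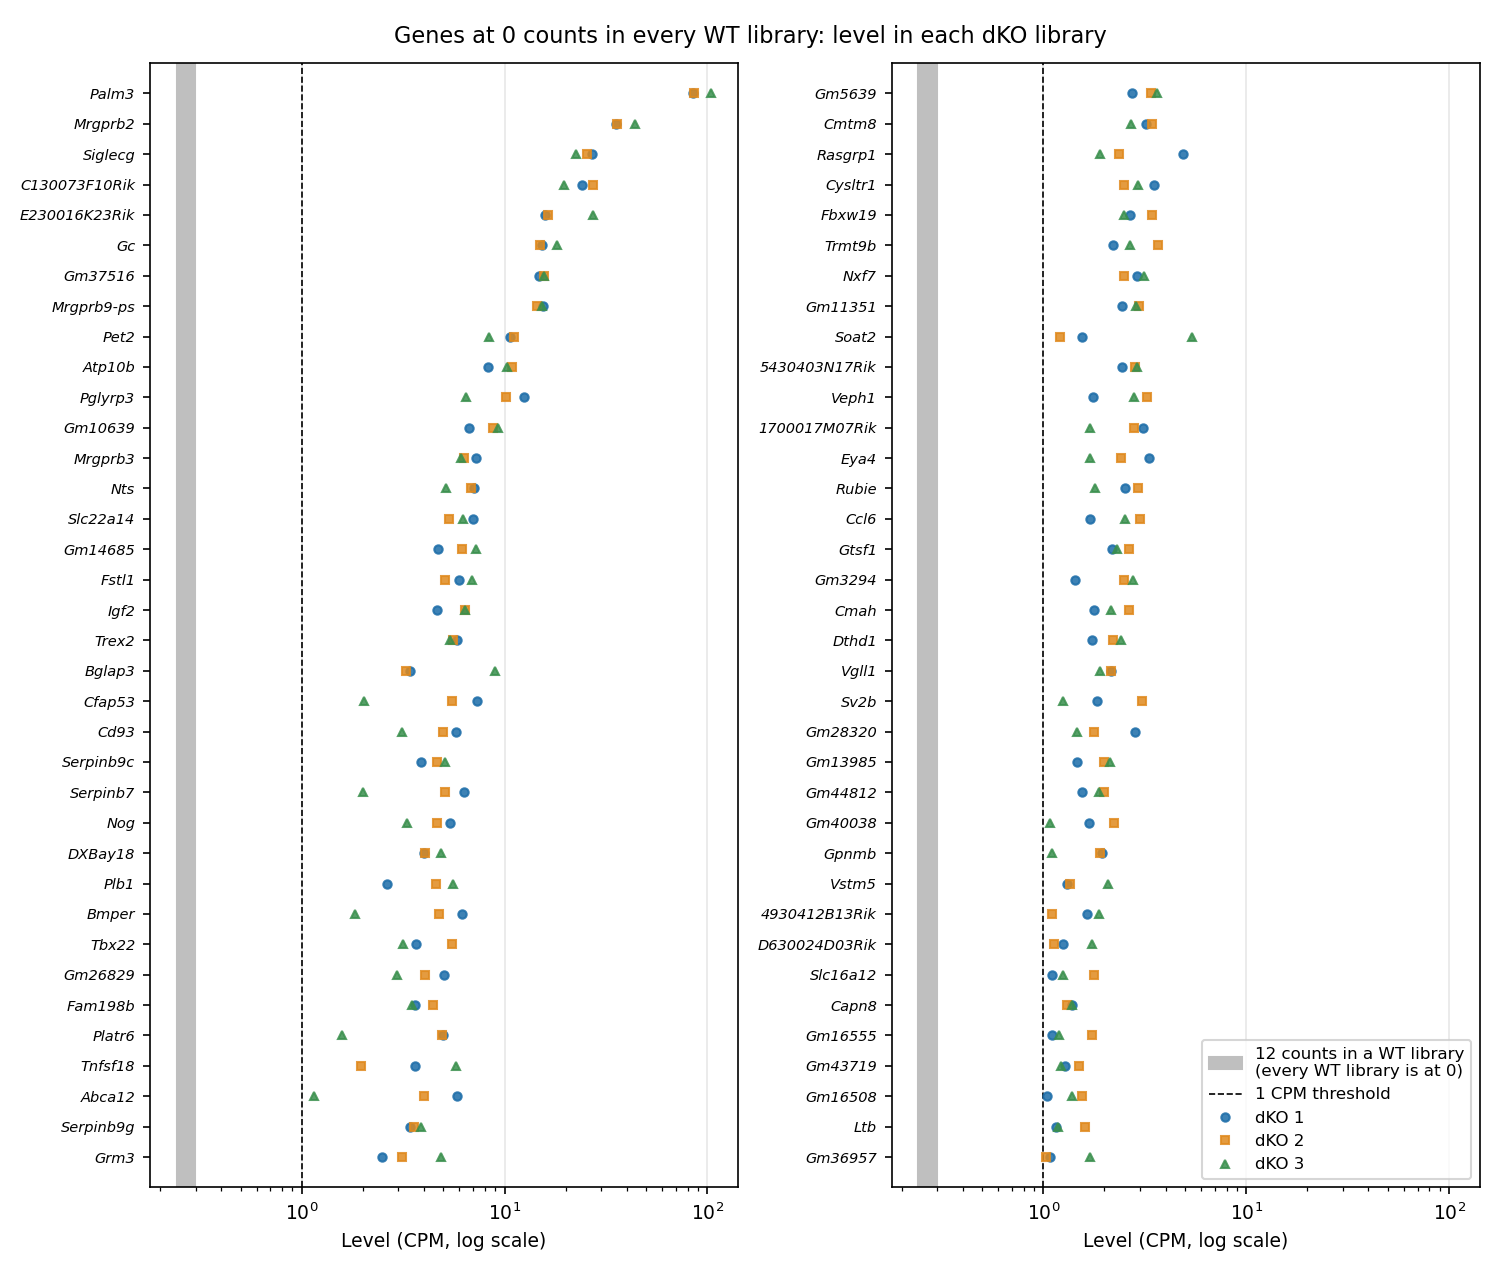
Level in CPM (log x axis) of all 72 members (rows) in dKO 1, 2 and 3 (circles, squares and triangles), ordered by mean, with the 1 CPM threshold dashed and the level of 12 counts in a WT library shaded. Palm3 stands apart at 85.1 to 104 CPM, and most members lie between 1 and 10 CPM.

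Membrane proteins and receptors are described first. Palm3 (chromosome 8, 84021471 to 84030295) had 85.1, 85.9 and 104 CPM in dKO 1, 2 and 3 and 0 counts in WT, at least 346-fold higher (91.8 ± 11.0 CPM, SD, n = 3). Mrgprb2, which on mast cells senses basic secretagogues, had 35.6, 36.0 and 44.0 CPM (at least 145-fold), and Siglecg, an inhibitory sialic acid receptor best known on B cells, had 27.0, 25.4 and 22.4 CPM (at least 94.0-fold). These 3 varied little between dKO libraries. Mrgprb3, a second Mas-related receptor, had 7.25, 6.29 and 6.10 CPM, and Cd93, a C-type lectin-like protein of endothelial and myeloid cells, 5.79, 4.97 and 3.13 CPM. Below them, and chosen after their values were seen, came the metabotropic glutamate receptor Grm3 (2.49, 3.12 and 4.85 CPM) and the cysteinyl leukotriene receptor Cysltr1 (3.51, 2.48 and 2.94 CPM). Cmtm8, Gpnmb, Vstm5 and the synaptic vesicle glycoprotein Sv2b had means from 1.58 to 3.12 CPM.

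Relatives of these genes moved in either direction or stayed at 0. Among the paralemmins, Palm fell from 44.7 to 20.5 CPM (log2 fold change -1.14, adjusted p = 9.41e-05), Palmd rose from 0.113 to 0.824 CPM (adjusted p = 0.00983) and Palm2, not tested, had a mean of 0.175 CPM in dKO. Palmd entered the test only through its dKO counts. Of 18 Mas-related receptor genes listed, 10 had 0 counts in all 6 libraries, among them Mrgprb1, Mrgprb4, Mrgprb5 and Mrgprb8. Mrgpre, which WT expressed, had 22.0 CPM in WT and 21.7 CPM in dKO (log2 fold change -0.04, adjusted p = 0.829). In the Siglec family the 3 other tested members fell: Siglec15 from 21.8 to 0 CPM, Cd33 from 19.2 to 0.222 CPM and Siglec1 from 1.37 to 0.0956 CPM.

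Gc, Pglyrp3, Nts, Fstl1 and Igf2 encode secreted proteins. Gc, the vitamin D-binding protein of liver and plasma (chromosome 5, 89417522 to 89457898), had 15.2, 14.9 and 18.1 CPM (at least 60.6-fold). Pglyrp3, a peptidoglycan recognition protein of epithelia, had 12.5, 10.2 and 6.50 CPM, and Nts, the precursor of the peptide neurotensin, 7.07, 6.81 and 5.15 CPM. Both were highest in dKO 1 and lowest in dKO 3. The follistatin-like glycoprotein Fstl1 had 5.97, 5.09 and 6.92 CPM, and the imprinted fetal growth factor Igf2 4.66, 6.39 and 6.36 CPM. Part of Igf2 cannot be assigned with certainty. The annotated Gm49394 shares 3598 identical bases with it on the same strand and has no value in the deposited counts, so it was not counted apart from Igf2. The antisense Igf2os had a mean of 1.31 CPM in dKO and 0.0498 CPM in WT, which reads without strand cannot separate from Igf2.

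Antagonists of bone morphogenetic proteins (BMPs) were members. Nog, which binds BMPs outside the cell, had 5.37, 4.65 and 3.32 CPM, and Bmper 6.15, 4.77 and 1.84 CPM. Bglap3, an osteocalcin-family gene, had 3.43, 3.27 and 8.99 CPM, although its 471-base stretch at 97.7% identity to Bglap2 leaves the assignment of some reads uncertain. Fam198b, which encodes a protein of the Golgi, had 3.64, 4.43 and 3.51 CPM. Immune ligands were lower: Tnfsf18 (the ligand of GITR) had 3.64, 1.97 and 5.77 CPM, the chemokine Ccl6 had 1.70, 3.00 and 2.52 CPM and Ltb (lymphotoxin beta) had 1.15, 1.60 and 1.18 CPM. The last 3 were chosen after their values were seen. The related Tnfsf15 rose from 0.198 to 23.7 CPM (log2 fold change 6.87, adjusted p = 4.63e-05), while Tnfsf13 fell from 6.31 to 0.771 CPM (adjusted p = 0.00023). Tnfsf15 entered the test only through its dKO counts.

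Clade B serpins, mostly intracellular inhibitors of serine and cysteine proteases, gave 3 members beside Serpinb9b, set aside by name. Serpinb9c had 3.87, 4.62 and 5.11 CPM and Serpinb7 had 6.34, 5.07 and 2.00 CPM. Serpinb9g, chosen after its values were seen, had 3.40, 3.57 and 3.88 CPM; a 1913-base stretch matches Serpinb9f at 97.5%, which itself had a mean of 0.598 CPM in dKO. Outside the members, Serpinb2 rose from 0.0496 to 23.5 CPM (log2 fold change 8.75, adjusted p = 2.89e-06) and Serpinb6b from 1.07 to 60.3 CPM (5.83, adjusted p = 8.64e-07). Serpinb2 entered the test only through its dKO counts. Serpinb6a fell from 246 to 204 CPM (-0.28, adjusted p = 0.0173).

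Transporters and enzymes of lipid handling were also among the members. Atp10b, a P4-type ATPase that flips lipids across membranes, had 8.25, 10.8 and 10.3 CPM (at least 36.9-fold). Slc22a14, of the organic ion transporter family, had 6.96, 5.34 and 6.21 CPM, and Plb1, a phospholipase, 2.64, 4.60 and 5.55 CPM. Slc22a14 is the sole member whose gene body overlaps genes at 1 CPM or more in WT. On the same strand these were Myd88 (26.2 CPM in WT, 43.0 in dKO) and Oxsr1 (80.5 and 238 CPM). On the opposite strand they were Acaa1a (79.6 and 50.6 CPM) and Xylb (3.42 and 6.98 CPM). The remaining genes were chosen after their values were seen. Abca12, the lipid transporter of keratinocyte lamellar granules, had 5.86, 4.03 and 1.15 CPM, and Soat2, which esterifies cholesterol, 1.54, 1.20 and 5.41 CPM; Soat1, its widely expressed relative, fell from 86.2 to 43.7 CPM (log2 fold change -0.99, adjusted p = 3.41e-05). Slc16a12, a monocarboxylate transporter relative, and Cmah, which makes the sialic acid Neu5Gc, had means of 1.37 and 2.19 CPM. Per kilobase Cmah was the lowest member, at 0.206 RPKM.

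Other members encode proteins that act in the nucleus or on RNA. Trex2, a 3′ exonuclease of keratinocytes, had 5.81, 5.56 and 5.41 CPM, and Tbx22, a T-box transcription factor of palate development, 3.67, 5.51 and 3.15 CPM. Vgll1 had 2.15, 2.16 and 1.91 CPM, and Eya4, a phosphatase and transcriptional co-activator, 3.33, 2.41 and 1.69 CPM; both were chosen after their values were seen. Their relatives moved in either direction: Vgll3 rose from 0.362 to 47.2 CPM (log2 fold change 7.06, adjusted p = 1.07e-06), Vgll4 had 73.1 and 79.3 CPM (adjusted p = 0.459), and Eya2 fell from 150 CPM to 0 counts in all 3 dKO libraries. Vgll3 would not have been tested on its WT counts alone. Also among the members, and chosen after their values were seen, were Nxf7 (an mRNA export factor relative), Gtsf1 (of the piRNA pathway), Trmt9b (a tRNA methyltransferase relative) and the Ras activator Rasgrp1, with means from 2.38 to 3.05 CPM. Pet2, an X-linked gene, had 10.6, 11.2 and 8.38 CPM, and Cfap53, a protein of cilia and flagella, 7.30, 5.53 and 2.02 CPM. Capn8 (a calpain protease), Veph1, Dthd1 and Fbxw19 complete the protein-coding members with an assigned name, with means from 1.36 to 2.86 CPM, and were named after their values were seen.

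Non-coding genes took a larger share of the members than of other genes in the dKO libraries. By biotype 51 members (70.8%) were protein-coding and 13 (18.1%) were long intergenic non-coding RNAs (lincRNAs). Among 12222 annotated genes at 1 CPM or more in every dKO library, 88.9% were protein-coding and 1.60% lincRNAs, and the mirrored set had 63 protein-coding genes (91.3%) and 1 lincRNA (1.45%); these shares carry no test. The other 8 were 3 transcripts to be experimentally checked, 2 pseudogenes and 1 each of the antisense, sense-intronic and processed-transcript classes. Several ranked high, and were chosen after their values were seen. E230016K23Rik had 15.8, 16.3 and 27.4 CPM, Gm37516 had 14.9, 15.7 and 15.7 CPM, and the pseudogene Mrgprb9-ps had 15.4, 14.4 and 15.3 CPM. Per kilobase the small predicted protein gene C130073F10Rik (24.2, 27.2 and 19.6 CPM) was the highest member, at 26.0 RPKM, followed by Palm3 at 25.4, Mrgprb2 at 18.6 and Mrgprb9-ps at 16.8. Platr6 and Rubie were the 2 lincRNAs with an assigned name, with means of 3.84 and 2.42 CPM.

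The 1 CPM threshold cut through a continuum. Just inside it lay Gm36957, Gm16508 and Gm40038, with lowest dKO values of 1.03, 1.05 and 1.08 CPM; just outside lay Gm18336, Tmeff2 and Adap2, at 0.984, 0.965 and 0.918 CPM. On the WT side, 25 genes met the dKO threshold with 1 to 4 counts in some WT library and none above 4. The highest was Panx3, a pannexin channel gene, with 80.7, 94.7 and 97.4 CPM in dKO and 3 counts over all of WT; as 1 of the genes just outside the rule it was chosen after its values were seen.

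Position on the chromosomes was not used in the choice. Chromosome X carried 9 members (12.5%), against 3.03% of the genes at 1 CPM or more in every dKO library and 2 genes (2.90%) of the mirrored set. The 9 were Pet2, Vgll1, Tbx22, Cysltr1, Trex2, Nxf7, DXBay18, Gm14685 and Gm5639. They are not 9 independent loci: DXBay18 (4.01, 4.06 and 4.85 CPM) and Gm14685 match over 2862 bases at 99.9%, and both match Gm5639 over 2403 bases at 99.1%, so reads of these 3 cannot be told apart. Counted as 1 locus with those 2 left out, 7 X-linked loci remain. X-linked genes that were no members moved like the genome: of 465 tested, 26.9% were called higher and 29.7% lower, beside 28.6% and 28.7% of all genes.

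**Figure D3:**
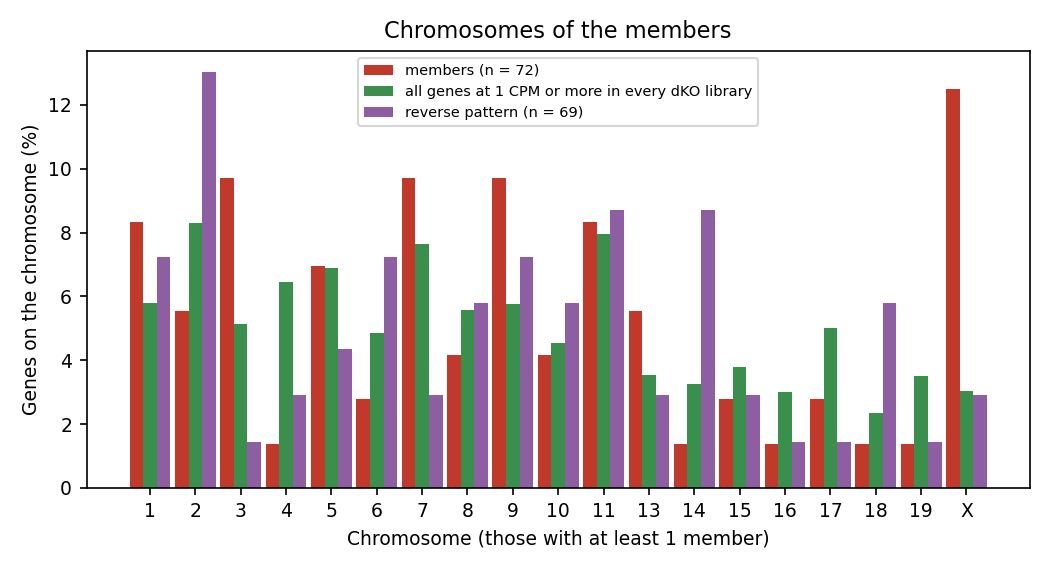
Share of genes on each chromosome (%, bars from 0) for the 72 members, for all genes at 1 CPM or more in every dKO library and for the 69 genes of the mirrored set. The X bar is 12.5% for members, against 3.03% and 2.90%.

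Some members lay side by side. There were 7 pairs within 100 kb, which involved 11 members, and 20 members had another within 1 Mb. Mrgprb2, Mrgprb9-ps and Mrgprb3 lay on chromosome 7 with gaps of 32.7 and 51.1 kb, in a locus where the remaining annotated Mrgprb genes listed had 0 counts in WT and at most a trace in dKO. Gm37516 lay 47.6 kb beyond Capn8, and Gm13985 lay 9.11 kb from 4930412B13Rik. Ccl6 lies within E230016K23Rik on the opposite strand, so, with strand use not given in the sources used here, reads of the pair cannot be told apart. In all, 27 members overlap another annotated gene and 15 share a stretch of at least 200 bases at 95% identity or more with another gene. For 2 of these, Fstl1 and Veph1, the match was to a gene at 1 CPM or more in WT; both had 0 counts in WT.

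The genes next to the members were outside the rule and could be tested. For each member the nearest protein-coding gene on each side that did not overlap it and was no member was taken, which gave 129 genes, 71 of them tested. Of these, 41 (57.7%) were called higher, 10 (14.1%) lower and 20 neither, beside 28.6% higher and 28.7% lower over all genes; their median log2 fold change was 0.79, against -0.0050 over all genes. Some neighbours were themselves near silence in WT and passed the count filter only through dKO. Among them, Gm11397 matches the member Serpinb9g over 1865 bases at 97.8%, and Gsta1 matches the member Gm10639 over 874 bases at 96.6%. Reads shared within these pairs could add to the counts of either gene, which was not tested. In dKO, Gsta1 had a mean of 24.8 CPM and Gm10639 one of 8.24 CPM. Gsta2, no neighbour, matches Gm10639 over 869 bases at 98.2% and had a mean of 3.89 CPM, so part of the level of Gm10639 may belong to these relatives. Restricted, after seeing the data, to the 56 neighbours with a WT mean of at least 1 CPM, 26 (46.4%) were called higher and 10 (17.9%) lower, beside 29.3% and 33.3% of the 12903 tested genes at that level. Within 100 kb 14 of 32 such neighbours (43.8%) were called higher and 6 (18.8%) lower. Without WT 2 and dKO 3 50 of all neighbours were called higher and 13 lower, while the counts over all genes rose from 4526 to 5101 higher and from 4534 to 5038 lower; the 50 include neighbours that passed the filter only through dKO.

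The 6 neighbours with the smallest adjusted p were Amotl2, Cavin2, 2210011C24Rik, Slc39a10, Speer3 and Thbs1. Amotl2, an angiomotin and YAP target, lies 15.7 kb from the non-coding Gm36957 and had 34.7, 36.4 and 32.0 CPM in WT and 872, 860 and 1083 CPM in dKO (log2 fold change 4.76, adjusted p = 2.02e-08). Gm36957 itself had 1.07, 1.03 and 1.69 CPM in dKO. 2210011C24Rik, 9.30 kb from Palm3, had 0.564, 0.598 and 0.213 CPM in WT and 67.6, 63.4 and 81.3 CPM in dKO (7.26, adjusted p = 1.37e-07). It entered the test only through its dKO counts, and like Palm3 it was highest in dKO 3. Cavin2, a caveolar coat protein, had means of 8.46 and 115 CPM (3.75, adjusted p = 7.75e-08) at 139 kb from Gm28320, and Thbs1, the matrix protein thrombospondin-1, 767 and 3014 CPM (1.96, adjusted p = 1.61e-06) at 203 kb from 4930412B13Rik. Speer3, 185 kb from Gm43719, had means of 0.0332 and 35.7 CPM and also entered the test only through dKO. On the other side of Gm43719, at 1.47 kb, lies Sema3a, named after its values were seen. It rose from 0.134 to 18.8 CPM (7.11, adjusted p = 7.98e-06) and likewise entered the test only through dKO. Slc39a10, a zinc transporter, rose from 32.8 to 122 CPM (1.88, adjusted p = 4.48e-07) but lies 4255 kb away from Gm28320. Gm28320 itself lies within Tmeff2 on the same strand, a gene at 0 counts in WT and a mean of 1.32 CPM in dKO. Whether reads of that pair can be told apart was not tested. Not every neighbour was called higher, as 2 genes chosen after their values were seen show. Csad, a taurine synthesis enzyme 13.5 kb from Soat2, fell from 41.9 to 5.33 CPM (-2.99, adjusted p = 2.40e-06), and Slc4a4, 178 kb from Gc, was not called, with means of 20.7 and 23.3 CPM (0.15, adjusted p = 0.545).

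**Figure D4:**
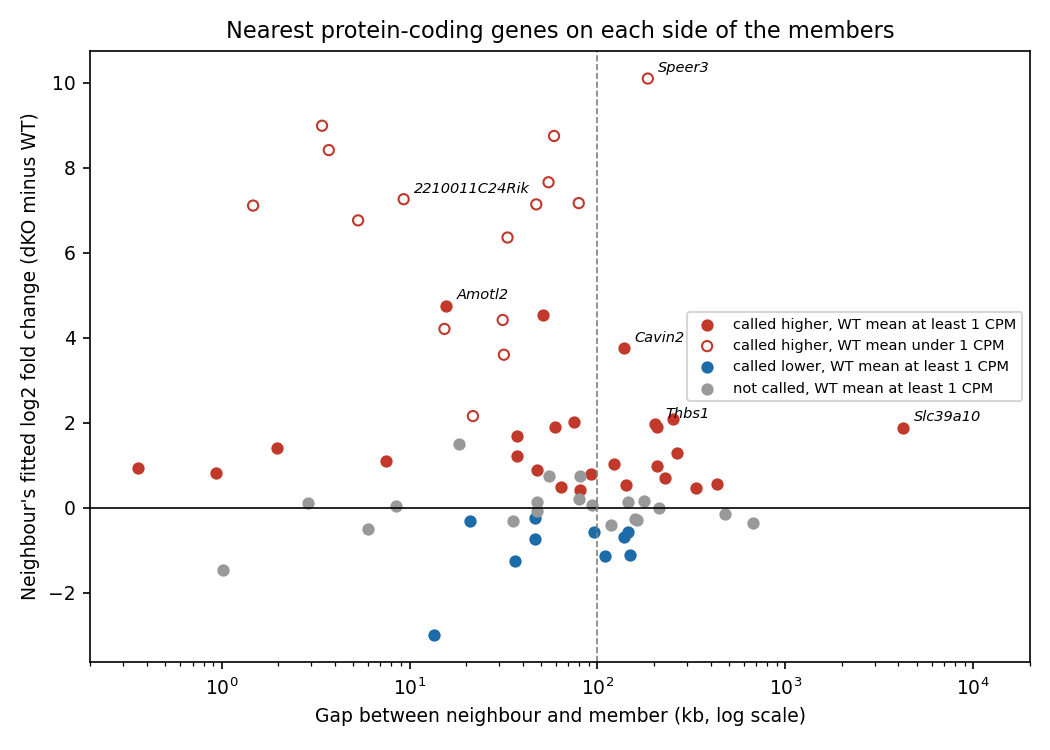
Fitted log2 fold change (y axis, dKO minus WT) of the 71 tested neighbours against the gap to the member in kb (log x axis); red, blue and grey are called higher, called lower and not called, open circles have a WT mean under 1 CPM and the dashed line marks 100 kb. Every open circle is red and above 2, and all of these genes but Rassf9 entered the test only through dKO. Among filled circles 26 are red and 10 blue.

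Members differed in how steady they were across the dKO libraries. The median coefficient of variation was 19.4%, and the median ratio of dKO 3 to the mean of dKO 1 and dKO 2 was 0.996, with quartiles of 0.729 and 1.20. Yet 5 members (6.94%) were at 0.5 or less: Abca12 at 0.233, Cfap53 at 0.315, Platr6 at 0.317, Bmper at 0.336 and Serpinb7 at 0.351. Another 3 (4.17%) were at 2 or more: Soat2 at 3.94, Bglap3 at 2.68 and Tnfsf18 at 2.06. Among 2769 other genes at 1 CPM or more in every dKO library with a mean under 10 CPM, 3.68% and 1.99% lay that far out. Between dKO 1 and dKO 2 the members' ratio ran only from 0.540 to 2.06. The dKO 3 library as a whole stood apart from the other pair, and its part in these ratios was not tested.

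**Figure D5:**
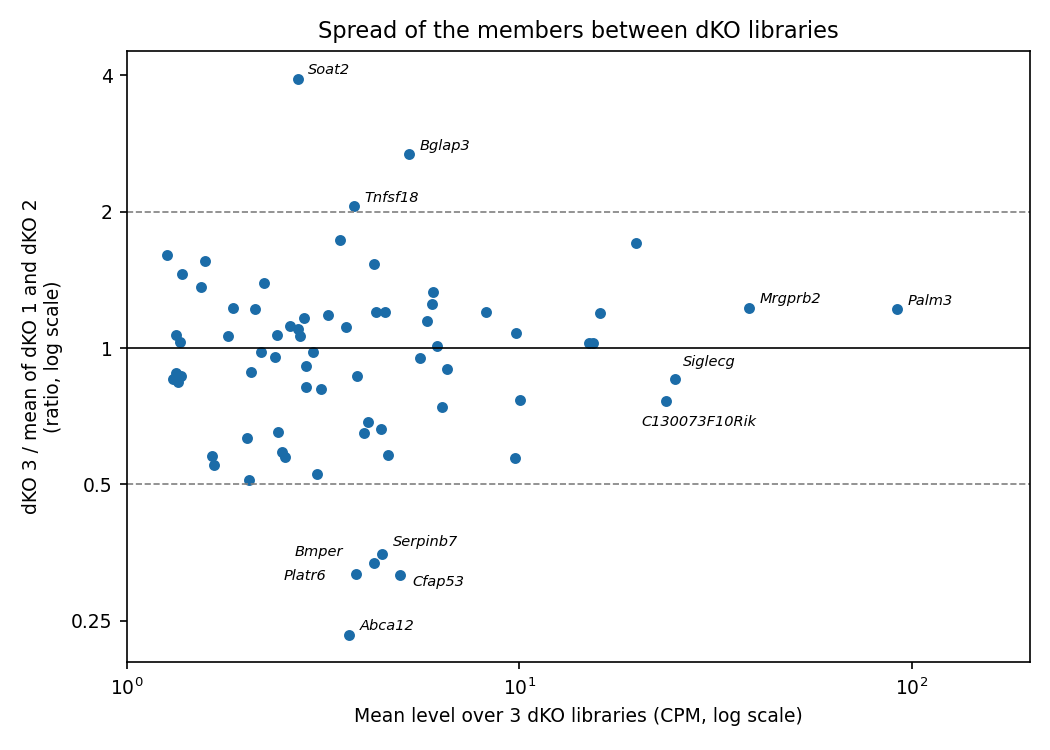
Ratio of the dKO 3 level to the mean of dKO 1 and dKO 2 (log y axis) against the mean dKO level in CPM (log x axis) for the 72 members; dashed lines mark 0.5 and 2. Soat2, Bglap3 and Tnfsf18 lie above 2, Abca12, Cfap53, Platr6, Bmper and Serpinb7 lie below 0.5, and Mrgprb2 and Palm3 lie at 1.23 and 1.22.

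Several members are known from other cell types, and marker lists of those types were read in the same libraries; none of the lists holds a member. Mast cell markers, beside Mrgprb2, were at 0 in all 6 libraries for 7 of 9 genes, including the defining Cpa3, Mcpt4, Cma1 and Tpsb2, and their summed level was 0 to 0.811 CPM in dKO and 0.0850 to 0.423 CPM in WT. B cell markers, beside Siglecg, summed to 0.212 to 0.943 CPM in dKO and 0.0638 to 0.484 CPM in WT, with Ms4a1, Pax5 and Ighm at 0 everywhere. Hepatocyte markers, beside Gc, summed to 8.43 to 19.1 CPM in dKO and 0 to 0.747 CPM in WT. Apob held nearly all of that sum (0.211 to 13.7 CPM, log2 fold change 6.09, adjusted p = 0.000794), and Alb and Ttr were at 0. Apob entered the test only through its dKO counts. Macrophage and leukocyte markers, beside Cd93, Ccl6 and Gpnmb, summed to 3.44 to 16.9 CPM in WT and 78.1 to 209 CPM in dKO, and the 3 of 9 that were tested, Csf1r, Cd68 and Itgam, were called higher. Itgam, at 0 counts in WT and a mean of 0.377 CPM in dKO, passed the count filter only through dKO. Csf1r carried most of it (6.26 and 147 CPM), with its lowest dKO value, 63.4 CPM, in dKO 3 and the other two at 189 and 190 CPM, and Cd68 rose from 2.14 to 15.6 CPM (log2 fold change 2.86, adjusted p = 2.35e-06). Adgre1, not tested, was at 0 counts in WT and at 2.12, 2.53 and 0 CPM in dKO 1, 2 and 3, while Ptprc was at 0 to 0.418 CPM and C1qb at 0. Neuron markers, beside Nts, Grm3 and Sv2b, summed to 26.4 to 28.7 CPM in WT and 131 to 154 CPM in dKO, nearly all from Map2, with Snap25 and Stmn2 at 0. The part of the macrophage and neuron lists in the members' levels was not tested.

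Mammary epithelial markers, for the labelled line, summed to 5006 to 5425 CPM in WT and 4161 to 5104 CPM in dKO; of 7 tested, 3 were called higher and 3 lower, and Krt5 was at 0. T and NK cell markers summed to at most 0.105 CPM. Fibroblast markers summed to 37.4 to 58.8 CPM in WT and 4.52 to 7.50 CPM in dKO, with Lum and Thy1 at 0. Endothelial, germ cell, muscle, adipocyte and melanocyte markers summed to at most 1.47 CPM in any library.

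Lists of the Hippo output and of silencing machinery were read beside the members, again relative to a median log2 fold change of -0.0050 over all genes. Of 21 YAP/TAZ target genes 17 were tested, 12 of which were called higher and 3 lower, beside 28.6% and 28.7% of all genes, with a median of 1.23; none is a member. The 12 include Lats2, itself a gene that the labels give as knocked out. Ccdc80, also on the list, entered the test only through its dKO counts. Among 12 tested genes of DNA methylation, 3 were called higher and 4 lower, close to those shares over all genes, with a median of -0.12. Dnmt3b, a de novo methyltransferase, rose from 4.18 to 14.1 CPM (1.74, adjusted p = 0.000156), while Uhrf1, which recruits the maintenance enzyme, fell from 145 to 70.6 CPM (-1.06, adjusted p = 0.00115) and Dnmt1 had 255 and 234 CPM (adjusted p = 0.176). All 27 Polycomb genes were tested: 4 were called higher and 14 lower, beside the same 28.6% and 28.7%, with a median of -0.28. Of 14 genes of H3K9 methylation and heterochromatin, 4 were called higher, the share found over all genes, and 7 lower, with a median of -0.20. No chromatin or methylation was measured in these samples, so the state of the member promoters was not tested.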

How the data were processed

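RNA of 6 spheroid libraries was sequenced. The deposited values are estimated counts per gene given as whole numbers; per the submitters' processing notes the authors used HISAT2 2.2.1, StringTie 2.2.1 and GRCm38 (mm10). The counting step, annotation release and strand setting are named in no source used here. All 6 per-library tables equalled the series table, and 48144 of 48820 gene IDs matched GENCODE M21. Library totals set the floor of 12 counts: genes at 4 counts (678 to 775 per library) outnumbered those at 5 (273 to 367).

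Members were found on unscaled CPM. The genotype contrast was fitted over all 6 libraries with edgeR 4.0.16 in R 4.3.3 (filterByExpr, TMM, robust quasi-likelihood F-test). Adjustment was by Benjamini-Hochberg over all tested genes, with a threshold of 0.05, and every adjusted p is from that fit. On simulated data 216 of 15874 tested genes were called. Of these, 17 were false calls, a larger share than the 0.05 that the threshold aims at. Recovery was 99 of 100 genes at 2-fold and 100 of 100 at 4-fold. The simulation gave every gene the same dispersion, drew all counts independently and changed only a small set of better-expressed genes. Its rates therefore cannot be carried over to the low members or to these data. Alternatives were DESeq2 1.42.0, other scalings, filters and thresholds, a replicate block and leaving out libraries. Named members are the 24 with the highest mean CPM among assigned names, the 3 on each side of the threshold, list members, and the 6 neighbours with the smallest adjusted p. Members and lists were chosen with earlier results of these data known. Near-identical stretches were sought by alignment of M21 transcripts.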

Additional observations from a re-analysis of the deposited data

How the results depend on the processing

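The number of members followed the threshold by construction: 121 genes at 0.5 CPM, 41 at 2 CPM and 17 at 5 CPM, and the mirrored set held 26 at 5 CPM. Leaving out 1 library at a time gave 74 to 95 members and 72 to 91 mirrored genes, because fewer libraries had to meet the rule. Without WT 2 and dKO 3 together, an alternative chosen after seeing the data, it gave 121 and 106. Allowing up to 4 counts in each silent library gave 97 members, and TMM scaling kept all 72. Counts of genes called higher ran from 4049 to 4637 and lower from 3973 to 4581 with 1 library left out. All 72 members were called in each of those fits and with DESeq2, which the selection built in and from which nothing is read. Where at least 50 counts in 3 libraries were required, 60 members were called, since fewer were tested. Neighbours called higher numbered 40 to 47 and lower 8 to 11 with 1 library left out. Limited, after seeing the data, to a WT mean of at least 1 CPM, 26 neighbours were called higher, and within 100 kb 6 were called lower, since fewer genes were tested.

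Replicate numbers are shared between the groups but same-numbered libraries deviated together with correlations of only -0.060, 0.048 and 0.082, so the numbers were not taken as pairs. With the replicate block, 4338 genes were called higher and 4320 lower, and 42 neighbours higher and 9 lower. The 72 members were again all called higher, as the selection built in. At about 1 CPM a member rests on some 40 counts per library. These may be far fewer read pairs, since 1 pair may add up to 4 counts. In WT, 0 counts do not show absence below the floor.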
